A study of Sus scrofa with 12 samples.

Results

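The muscle-enriched microRNAs miR-1, miR-133a-3p and miR-499-5p were followed in extracellular vesicles from cultures of pig bone marrow mesenchymal stromal cells. They are the 3 rows of these names (ssc-miR-1, ssc-miR-133a-3p and ssc-miR-499-5p) among 252 mature miRNAs in the table. They were chosen as known muscle miRNAs, and the choice was made with earlier results of these data known. The vesicles were pelleted by differential ultracentrifugation from medium that the cells had conditioned. The libraries thus hold RNA from the medium and not the RNA of the cells themselves. Whether part of it came with the serum used on plates and microcarriers, and not from the cells, was not tested. Cells came from wild-type juvenile Yucatan minipigs, had been expanded on plates and frozen, and were then grown in each of 3 ways. In the perfusion bioreactor, medium circulated at 4 mL/min over cells on scaffolds, and the labels give no serum content. On microcarriers, cells attached to beads in a spinner flask without serum before serum was added to 10%. On tissue culture plates, cells grew in flat dishes with 10% fetal bovine serum. Each method had 4 libraries, 1 from each of donors 1 to 4, which gave 12 libraries.

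miRNAs are short RNAs that bind messages through a few bases near their 5′ end, the seed, and lower the output of those messages. miR-1 and miR-133a are processed from shared primary transcripts in heart and skeletal muscle, where miR-1 is known to promote differentiation and miR-133a to favour myoblast proliferation and to restrain serum response factor. miR-499 lies in an intron of a myosin heavy chain gene and is known in mammals for its part in slow muscle fibre programmes. Marrow stromal cells are not muscle cells, and these miRNAs are also known to circulate in blood. In RefSeq's pig genes (Sscrofa11.1), MIR1 and MIR133A-1 are direct neighbours, MIR133A-2 lies within MIB1, and MIR499 lies within MYH7B. Mature miR-133a-3p from its 2 genes counts in the same row. miR-206, miR-133b and miR-208b, the close relatives of these miRNAs, had no row among the 252 miRNAs.

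Values are normalized read counts, that is reads divided by 1 scaling factor per library. The libraries held 264407 to 3253003 reads over the 252 miRNAs, with plate donor 2 the smallest. The stromal markers miR-21-5p, miR-143-3p, miR-145-5p and miR-199a-3p were at 0 in no library. Their summed level was 423457 to 508992 in perfusion, 321847 to 541481 on microcarriers and 258653 to 464416 on plates. Since vesicle RNA was measured in bulk and scaled within each library, fewer vesicles carrying a miRNA and fewer copies per vesicle cannot be told apart, nor can a lower level be told from a larger amount of other miRNAs.

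miR-1 was by far the highest of the 3 and fell in perfusion against plates. In perfusion it stood at 297.4, 775.0, 219.2 and 173.2 normalized counts in donors 1 to 4. On microcarriers it stood at 632.4, 940.0, 285.2 and 174.1, and on plates at 652.1, 1000.1, 824.7 and 1862 in the same order. The 4 plate libraries lay high, while perfusion donor 2 and microcarrier donors 1 and 2 reached or came near the plate range, so that the groups overlapped. These values rested on 162 to 411 reads in perfusion, 77 to 1202 on microcarriers and 203 to 4574 on plates. miR-1 held rank 70 to 116 of the 252 in perfusion, 61 to 110 on microcarriers and 48 to 74 on plates.

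miR-133a-3p was highest in perfusion, intermediate on plates and lowest on microcarriers. In perfusion it stood at 59.3, 69.9, 67.7 and 34.5 normalized counts in donors 1 to 4. On microcarriers it stood at 10.5, 22.3, 16.6 and 11.3, and on plates at 36.9, 29.6, 40.8 and 30.1. Every microcarrier library lay below every perfusion and every plate library, and perfusion donor 4 was the 1 perfusion library inside the plate range. Of all 252 miRNAs, 6.75% lay without overlap lower on microcarriers than on plates, and 11.5% higher in perfusion than on microcarriers. The share with both was not counted. The levels of miR-133a-3p were low in absolute terms, at 36 to 82 reads in perfusion, 5 to 28 on microcarriers and 6 to 74 on plates. The lowest read numbers were the 5 of microcarrier donor 4 (95% Poisson interval 1.62 to 11.7) and the 6 of plate donor 2 (2.20 to 13.1), intervals that cover counting error only.

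miR-499-5p was higher on plates than in either dynamic culture and varied little within a method. It stood at 42.7, 38.8, 28.4 and 45.7 normalized counts in perfusion donors 1 to 4, from 20 to 61 reads. On microcarriers it stood at 46.8, 37.4, 46.6 and 52.0, from 23 to 89 reads, and on plates at 60.7, 113.3, 86.7 and 89.2, from 23 to 219 reads. All 4 plate libraries lay above all 8 others, and the perfusion and microcarrier ranges overlapped. Of all 252 miRNAs, 10.7% lay without overlap lower in perfusion than on plates, and 6.75% lower on microcarriers than on plates. The share with both was not counted.

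**Figure D1:**
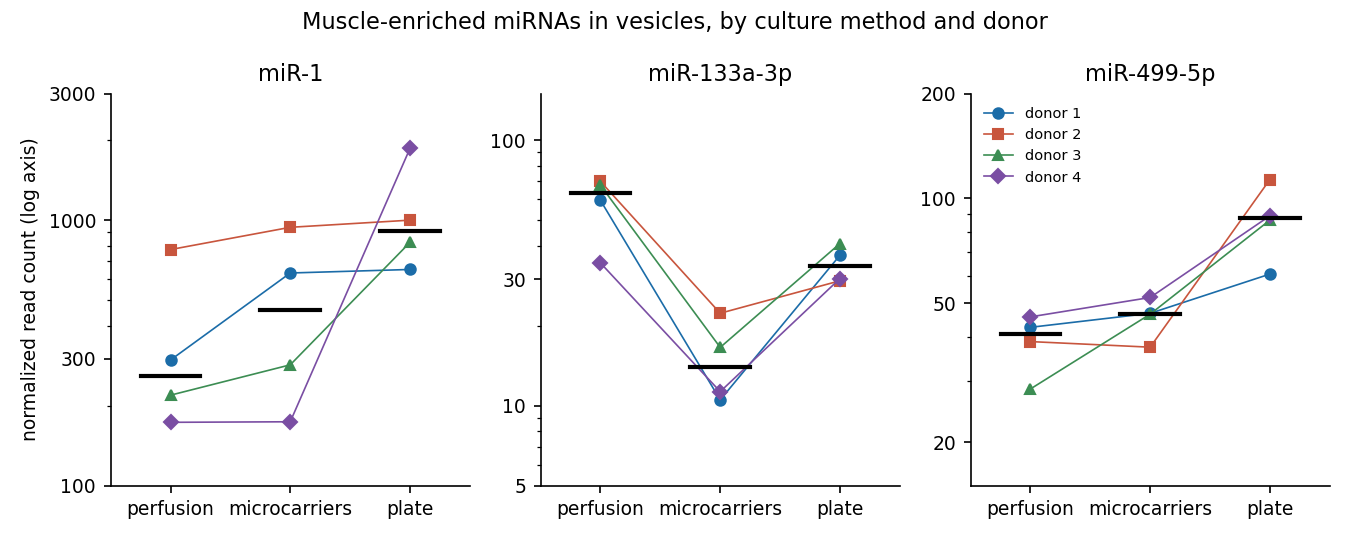
Normalized read count (log axis) of miR-1, miR-133a-3p and miR-499-5p in vesicles from perfusion, microcarrier and plate cultures, with 1 point per library, lines joining the libraries of a donor and black bars for the group medians. miR-133a-3p dips on microcarriers in all 4 donors, miR-499-5p is highest on plates in all 4, and miR-1 of donor 4 lies at 173.2 in perfusion, 174.1 on microcarriers and 1862 on plates.

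The first comparison asked how a perfused scaffold differed from standard plates. miR-1 averaged 366.2 ± 277 normalized counts in perfusion and 1085 ± 537 on plates (SD, n = 4 each). On the log2(value + 1) scale it fell by 1.71 ± 0.56 (SE) in limma, with a Benjamini-Hochberg adjusted p of 0.0453 over all 252 miRNAs. It was lower in perfusion in 4 of 4 donors, but the size differed from donor to donor: 2.19-fold in donor 1, 1.29-fold in donor 2, 3.76-fold in donor 3 and 10.75-fold in donor 4. The call was close to the threshold. With donor as a block and all libraries it also passed (limma adjusted p = 0.0275), as 32 of all 252 miRNAs did in the lower direction. In the fit without that block it did not pass without perfusion replicate 1, 3 or 4, plate replicate 2, 3 or 4, or microcarrier replicate 3, with adjusted p up to 0.142.

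miR-499-5p averaged 38.9 ± 7.55 normalized counts in perfusion and 87.5 ± 21.5 on plates, and fell by 1.14 ± 0.31 on the log2 scale (limma adjusted p = 0.0203). It was 1.42-, 2.92-, 3.05- and 1.95-fold lower in donors 1 to 4, and the groups did not overlap. Without perfusion replicate 3, the lowest library, the difference was -0.996 and did not pass (adjusted p = 0.0658). With donor as a block and all libraries miR-499-5p passed (limma adjusted p = 0.0175), again as 32 of all 252 miRNAs did in the lower direction.

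miR-133a-3p did not follow. It averaged 57.9 ± 16.2 normalized counts in perfusion and 34.3 ± 5.45 on plates, a log2 difference of 0.70 ± 0.37 that did not pass (limma adjusted p = 0.225, 95% interval -0.09 to 1.49). With donor as a block it did not pass either (limma adjusted p = 0.143). It was higher in perfusion in 4 of 4 donors, by 1.61-, 2.37-, 1.66- and 1.15-fold. An interval that reaches from about no difference to a log2 rise of 1.49 does not show that the levels were equal.

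Of the 3 members, 2 were thus lower and none was higher at an adjusted p of 0.05. Of all 252 miRNAs, 20.6% passed in this comparison, 10.3% lower and 10.3% higher. A direction shared by all 4 donors, which each of the 3 members had, was held by 22.6% of all miRNAs downward and 21.8% upward. For non-overlap in the lower direction, met by miR-499-5p alone of the 3, the share of all 252 was 10.7%. Among all 252, the p of miR-499-5p ranked 31 and that of miR-1 ranked 50, so neither was among the leading differences of this comparison.

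The second comparison set microcarriers against plates. All 3 members had lower means on microcarriers and were lower in 4 of 4 donors, as 17.9% of all 252 miRNAs were. None of the 3 passed, where 2.38% of the 252 did. miR-133a-3p averaged 15.2 ± 5.46 normalized counts on microcarriers and 34.3 ± 5.45 on plates (SD, n = 4 each), a log2 difference of -1.17 ± 0.37 (limma adjusted p = 0.122). With donor as a block it passed (adjusted p = 0.0460), the value that changes the call here. It was 3.50-, 1.33-, 2.46- and 2.67-fold lower in donors 1 to 4.

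miR-499-5p averaged 45.7 ± 6.05 normalized counts on microcarriers and 87.5 ± 21.5 on plates, a log2 difference of -0.90 ± 0.31 (limma adjusted p = 0.122). It was 1.30-, 3.03-, 1.86- and 1.72-fold lower in the 4 donors. The groups of miR-133a-3p and of miR-499-5p did not overlap, which held in the lower direction for 6.75% of all 252 miRNAs. Only 0.794% of the 252 were lower at an adjusted p of 0.05, and 3.97% with donor as a block.

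miR-1 averaged 507.9 ± 348 normalized counts on microcarriers and 1085 ± 537 on plates, a log2 difference of -1.27 ± 0.56 (limma adjusted p = 0.210, 95% interval -2.48 to -0.06). The difference came from donors 3 and 4, at 2.89-fold and 10.7-fold lower, while donors 1 and 2 were 1.03-fold and 1.06-fold lower. Without microcarrier replicate 4 it was -0.85. Donor 4 held the highest plate value of miR-1 and the lowest values of both dynamic cultures.

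The third comparison set both dynamic cultures side by side, and here miR-133a-3p stood out among the 3. It averaged 57.9 ± 16.2 normalized counts in the perfusion libraries and 15.2 ± 5.46 in the microcarrier libraries (SD, n = 4 for both). It rose by 1.87 ± 0.37 on the log2 scale (limma adjusted p = 0.00379) and was 5.64-, 3.14-, 4.08- and 3.05-fold higher in donors 1 to 4. The call held with each of the 12 libraries left out in turn, at log2 values from 1.73 to 2.10. It was the 1 member called, where 15.5% of all 252 miRNAs passed, 5.56% higher and 9.92% lower. It was higher in all 4 donors, as 23.8% of the 252 were. The groups did not overlap, which held in the higher direction for 11.5% of all 252. With values scaled to library totals, the log2 difference of miR-133a-3p was 2.01, and the median over all 252 miRNAs was 0.08 where the deposited scaling gave -0.07.

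miR-1 differed by -0.44 ± 0.56 (limma adjusted p = 0.620, 95% interval -1.64 to 0.77) and miR-499-5p by -0.24 ± 0.31 (adjusted p = 0.620, 95% interval -0.90 to 0.42). miR-1 was lower in perfusion in 4 of 4 donors, as 23.4% of all 252 miRNAs were, by 2.13-fold in donor 1 and by 1.00-fold in donor 4. miR-499-5p was lower in 3 of 4. With each library left out in turn, the value of miR-1 ran from -0.88 (without perfusion replicate 2) to -0.04 (without microcarrier replicate 2). That of miR-499-5p ran from -0.33 (without microcarrier replicate 2) to -0.10 (without perfusion replicate 3). None of these passed. The intervals leave room for differences of more than 1 on the log2 scale for miR-1, and for less than 1 in either direction for miR-499-5p. Perfusion and microcarriers were each compared with the same 4 plate libraries, so those comparisons are not independent of each other.

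**Figure D2:**
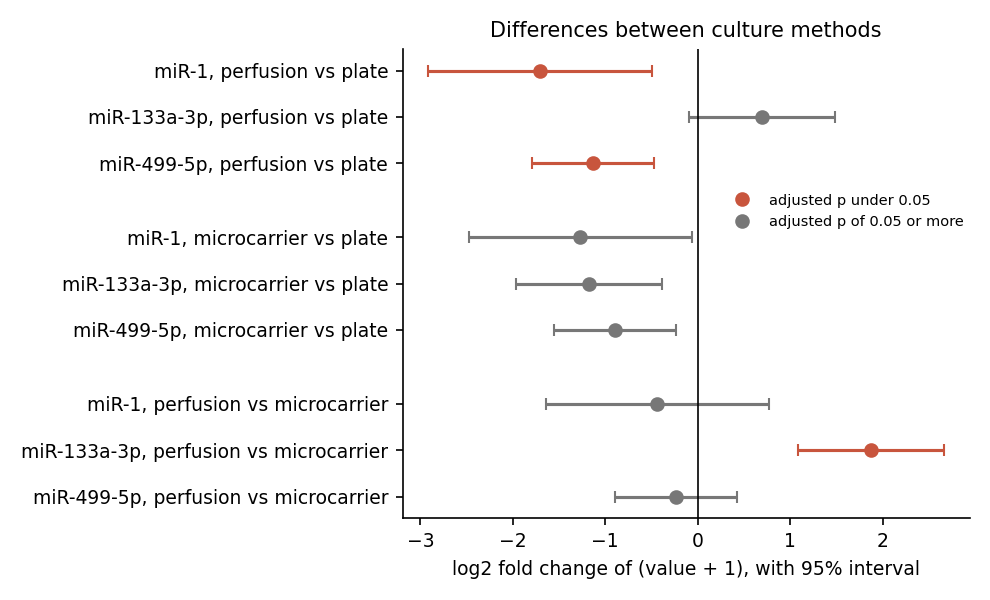
Log2 fold change of (value + 1) of each member in the 3 comparisons, the first-named group over the second, with 95% intervals from limma and red for an adjusted p under 0.05. miR-1 (-1.71) and miR-499-5p (-1.14) lie left of 0 in perfusion against plates, and miR-133a-3p lies at 1.87 in perfusion against microcarriers.

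In order of level, miR-1 and miR-499-5p ran plate, microcarrier and perfusion from high to low, and miR-133a-3p ran perfusion, plate and microcarrier. For miR-1 and miR-499-5p the neighbours in that order did not differ at an adjusted p of 0.05, and plate against perfusion, the ends of the order, did. For miR-133a-3p the neighbours also did not differ without the donor block, and perfusion against microcarrier did.

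miR-1 and miR-133a-3p thus had different profiles, which the ratio of miR-133a-3p to miR-1 within each library shows without any scaling between libraries. The miR-133a-3p row counts MIR133A-1, the neighbour of MIR1, and MIR133A-2 together, so it cannot be read as the profile of the neighbouring gene alone. Which gene gave the reads of either row was not tested. The ratio of 2 miRNAs also depends on how well each is captured, so only its differences between libraries are read. miR-133a-3p stood at 19.95%, 9.02%, 30.9% and 19.9% of miR-1 in perfusion donors 1 to 4. It stood at 1.66%, 2.37%, 5.82% and 6.49% on microcarriers and at 5.65%, 2.96%, 4.95% and 1.62% on plates. All 4 perfusion libraries lay above all 8 others, and microcarrier and plate libraries covered nearly the same range. The pair was chosen with its difference known, so no test is given. miR-499-5p stood at 5.01% to 26.4% of miR-1 in perfusion, 3.98% to 29.9% on microcarriers and 4.79% to 11.3% on plates, ranges that overlapped.

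**Figure D3:**
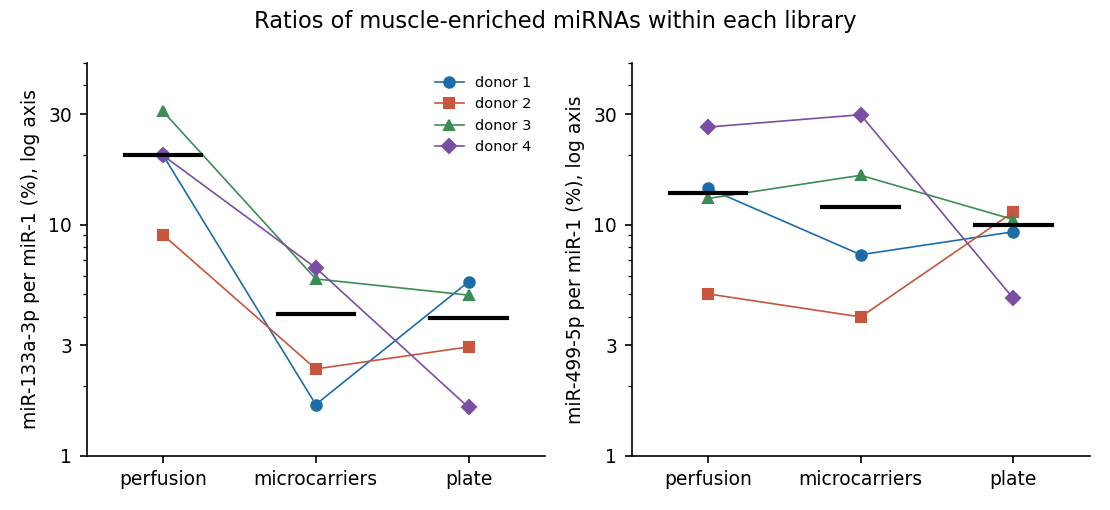
Ratio within each library of miR-133a-3p to miR-1 (left) and of miR-499-5p to miR-1 (right), in percent on a log axis, with 1 point per library, lines joining donors and black bars for medians. The miR-133a-3p ratio is 9.02% to 30.9% in perfusion and at most 6.49% in the other libraries, while the miR-499-5p ratio overlaps between methods.

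The members also differed in how much they varied between donors. Within a culture method, the pooled SD of log2(value + 1) was 0.92 for miR-1, 0.40 for miR-133a-3p and 0.29 for miR-499-5p, where the median of all 252 miRNAs was 0.61. For the 30 miRNAs nearest in mean level the median was 0.51 around miR-1, 0.71 around miR-133a-3p and 0.69 around miR-499-5p. miR-1 therefore varied more than most miRNAs of its level, while both low members varied less than most of theirs. These SDs hold counting error as well as donor differences, and the 2 were not separated. miR-133a-3p rested on 5 to 82 reads per library and miR-499-5p on 20 to 219.

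Within perfusion, miR-1 of donor 2 stood at 775.0 against 173.2 to 297.4 in the other 3. Within the microcarrier group donors 1 and 2 were high (632.4 and 940.0) and donors 3 and 4 low (285.2 and 174.1). Markers of other sources also differed between these donors. In microcarrier donors 1 to 4 the liver miRNA miR-122-5p stood at 1911, 802.2, 178.0 and 201.2, the endothelial miR-126-3p at 5951, 1572, 963.4 and 901.9, and the sum of 7 blood cell markers at 8852, 3020, 2457 and 2685. All 3 were higher in donors 1 and 2 than in donors 3 and 4, on microcarriers as on plates, while miR-1 on plates was not. In perfusion donor 2 was highest for miR-1 (775.0), miR-122-5p (40.8) and the blood cell sum (384.6), and donor 3 for miR-126-3p (185.4). The part of these sources in the spread of miR-1 was not tested.

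The profiles most like that of each member were ranked by Pearson correlation of log2(value + 1) over the 12 libraries, which share culture methods and donors. The values are descriptions without a test. The 5 closest to miR-133a-3p were miR-143-3p (r = 0.84, Spearman rho = 0.81), miR-769-3p (r = 0.83, rho = 0.85), miR-145-5p (r = 0.81, rho = 0.83), miR-503 (r = 0.80, rho = 0.73) and miR-28-5p (r = 0.73, rho = 0.71). miR-143-3p and miR-145-5p come from 1 cluster known for the contractile state of smooth muscle. After each culture's mean was subtracted, the correlation with miR-133a-3p was 0.52 for miR-143-3p and 0.44 for miR-145-5p, and 0.17 to 0.21 for the other 3.

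miR-143-3p stood at 72605 to 116006 normalized counts in perfusion, 30687 to 59289 on microcarriers and 56893 to 97739 on plates. miR-145-5p stood at 1406 to 1981 in perfusion, 352.0 to 1186 on microcarriers and 723.5 to 2539 on plates. Both had their lowest group mean on microcarriers, as miR-133a-3p had, at far higher levels. Their microcarrier and plate ranges overlapped, and neither passed in that comparison (limma adjusted p = 0.122 for both). Both were picked by their likeness to miR-133a-3p in these same libraries.

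The 5 profiles closest to miR-1 were miR-7134-3p (r = 0.82, rho = 0.76), miR-10a-3p (r = 0.80, rho = 0.85), miR-320 (r = 0.80, rho = 0.68), let-7a (r = 0.79, rho = 0.63) and miR-22-5p (r = 0.78, rho = 0.80). All 5 kept a correlation of 0.59 to 0.77 with miR-1 after the culture means were subtracted. The 5 closest to miR-499-5p were miR-152 (r = 0.86, rho = 0.90), miR-30e-5p (r = 0.77, rho = 0.80), miR-22-3p (r = 0.76, rho = 0.74), let-7c (r = 0.73, rho = 0.50) and miR-214-5p (r = 0.73, rho = 0.62). let-7c turned to -0.47 after the culture means were subtracted.

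No member was among the 5 closest of another. Between miR-1 and miR-499-5p r was 0.57 (rho = 0.45), between miR-1 and miR-133a-3p 0.06 (rho = 0.03), and between miR-133a-3p and miR-499-5p -0.16 (rho = -0.34). After the culture means were subtracted these became -0.08, 0.39 and -0.60.

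Other miRNAs known to act in muscle cells were described as lists. Of 4 contractile and smooth muscle miRNAs (both arms of miR-143 and miR-145), none was called in perfusion against plates, with a median log2 fold change of 0.03 where that of all 252 was -0.06. None was called on microcarriers against plates, though all 4 values were negative, with a median of -0.89 where that of all 252 was 0.11. In perfusion against microcarriers 2 of the 4 were higher, where 5.56% of all 252 miRNAs were, miR-145-5p (log2 fold change 1.59 ± 0.41, limma adjusted p = 0.0210) and miR-143-3p (0.94 ± 0.25, adjusted p = 0.0240). The median of the 4 was 0.76, where that of all 252 was -0.07. miR-133a-3p differed in the same direction as all 4 on microcarriers against plates and in perfusion against microcarriers. In perfusion against plates, where miR-133a-3p stood at 0.70, miR-145-5p (0.36) and miR-143-3p (0.20) were positive and miR-145-3p (-0.14) and miR-143-5p (-0.45) negative.

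Of 14 miRNAs listed as known to promote muscle differentiation, 12 matched a row by exact name. miR-206 had no row. miR-214, listed without an arm, was measured as miR-214-3p and miR-214-5p, which are outside the counts, and neither arm passed in any of the 3 comparisons. In perfusion against plates 1 of the 12 was lower and none higher, near the 10.3% of all 252 miRNAs that were lower. The median was 0.26, where that of all 252 was -0.06. The lower member was miR-486 (-4.34 ± 0.75), which is also erythroid. The next smallest p were those of miR-26a (-0.80 ± 0.31), miR-24-3p (-0.86 ± 0.36) and miR-29a-3p (0.43 ± 0.24), which did not pass. On microcarriers against plates none passed, with a median of 0.04 (0.11 for all 252). In perfusion against microcarriers miR-486 was lower (-5.43 ± 0.75) and miR-503, a miRNA known to slow the cell cycle, was higher (1.24 ± 0.32), where 9.92% of all 252 were lower and 5.56% higher. The median was -0.29 (-0.07 for all 252).

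Of 6 miRNAs known to restrain muscle differentiation, 2 were higher in perfusion against plates, where 10.3% of all 252 miRNAs were. The median of the 6 was 0.66, where that of all 252 was -0.06. They were miR-155-5p, also known from inflammation (1.74 ± 0.39, limma adjusted p = 0.00784), and miR-23a (0.90 ± 0.30, adjusted p = 0.0493). On microcarriers against plates miR-23a alone of the 6 was higher (1.498 ± 0.30, adjusted p = 0.0143), where 1.59% of all 252 were. The median of the 6 was 1.15 (0.11 for all 252), and miR-222 (1.62 ± 0.47) and miR-155-5p (1.39 ± 0.39) did not pass. None of the 6 passed in perfusion against microcarriers, where the median was -0.52 (-0.07 for all 252).

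Markers of other sources moved with some of these differences and against others. Of 7 blood cell markers (miR-142-3p, miR-142-5p, miR-144, miR-150, miR-223, miR-451 and miR-486) all 7 were lower in perfusion against plates, where 10.3% of all 252 miRNAs were, beside the falls of miR-1 and miR-499-5p. Their summed level was 39.1 to 384.6 normalized counts in perfusion, 2457 to 8852 on microcarriers and 699.0 to 3228 on plates. In perfusion miR-223 was listed at 0 in all 4 libraries, miR-144 in 2 and miR-142-3p in 1. Both arms of the endothelial miR-126 and 2 of 3 liver and gut markers (miR-122-5p and miR-194a-5p) were also lower in perfusion against plates. Their part in the lower miR-1 and miR-499-5p was not tested.

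On microcarriers against plates the direction of these markers was the opposite of that of the 3 muscle miRNAs. All 7 blood cell markers, both arms of miR-126 and all 3 liver and gut markers had positive log2 differences there, none of which passed, with a median of 1.09 for the blood cell markers. miR-1, miR-133a-3p and miR-499-5p stood at -1.27, -1.17 and -0.90 in the same comparison. In perfusion against microcarriers all 7 blood cell markers, both arms of miR-126 and all 3 liver and gut markers were lower. Of all 252 miRNAs, 9.92% were lower there, while miR-133a-3p rose. The epithelial markers (the miR-200 family, miR-141 and miR-205) matched no row by exact name.

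**Figure D4:**
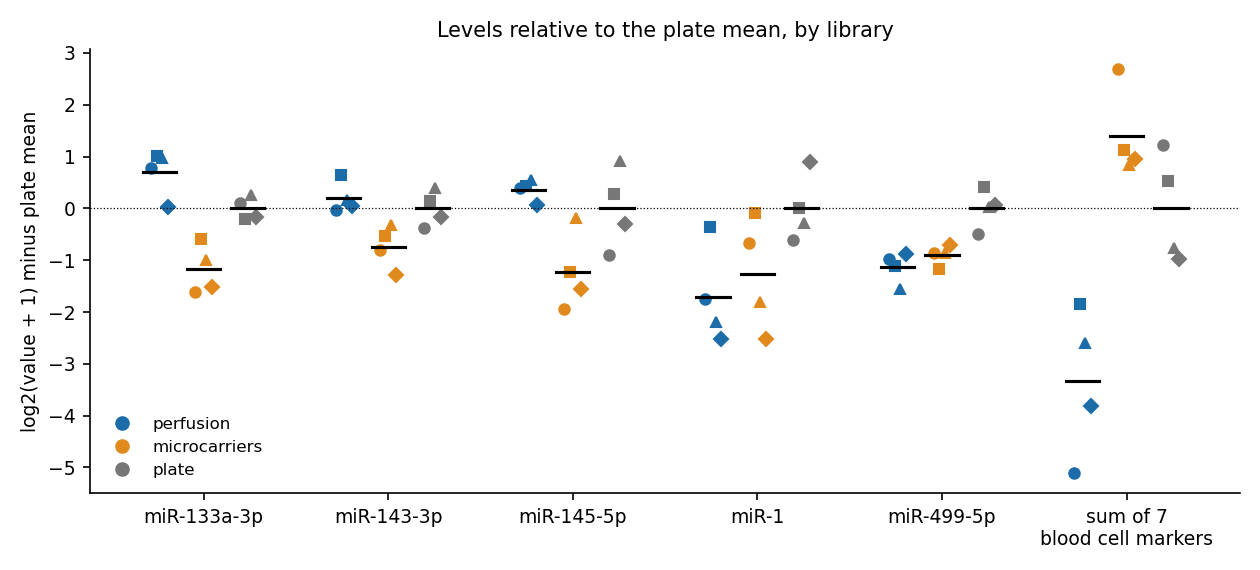
Log2(value + 1) minus the plate mean, by library, for miR-133a-3p with the contractile miR-143-3p and miR-145-5p, for miR-1 and miR-499-5p, and for the sum of 7 blood cell markers, with black bars for group means and marker shapes for donors 1 to 4 as in the plot of counts by culture method. miR-133a-3p, miR-143-3p and miR-145-5p have their lowest group mean on microcarriers, miR-1 and miR-499-5p lie below the plate mean in both dynamic cultures, and the blood cell markers have their lowest group mean in perfusion and their highest on microcarriers.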

How the data were processed

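Libraries were built from vesicle RNA with a NEBNext small RNA kit, per the labels' protocols. Alignment used Bowtie, per the submitters' processing notes; its version, the build, the annotation and the counting were not given in the sources used here. What the authors deposited is a signal that the file header calls a normalized read count. In every library 100% of values above 0 were whole multiples of a single step (within 0.001). These steps followed median-of-ratios factors recomputed from the table, so reads were recovered from them. Each column was assigned by the library number in its header.

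The test was limma 3.58.1 (R 4.3.3) with a prior variance that depends on the mean, run on log2(value + 1). All 252 miRNAs reached 1 in at least 4 libraries and were kept. Culture method was the only factor, all 12 libraries entered, and Benjamini-Hochberg adjustment ran over all 252. The pseudocount understates the change of low miRNAs. Donors are separate animals. Same-numbered libraries share a donor, and their deviations from the culture means correlated at 0.02 to 0.67 (-0.42 to 0.24 between donors), so donor was also fitted as a block. The fit was also run on simulated counts drawn without donor differences, so that run does not bear on the calls given here.

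Members and lists were chosen with earlier results of these data known. The miRNAs named were the members, the 5 most correlated profiles of each and up to 4 of each list by smallest p. List members were matched by exact name, so miR-214, listed without an arm, did not take the rows of its 2 arms. miR-206 had no row. A count test on recovered reads had been foreseen; limma-voom took its place. Other alternatives were pseudocounts, filters, library totals, fits of 2 groups and each library left out. Python 3.11.15, pandas 2.3.3 and SciPy 1.17.1 were used.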

Additional observations from a re-analysis of the deposited data

How the results depend on the processing

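No member changed direction under any alternative run. In perfusion against plates, miR-1 gave -1.71 with a pseudocount of 0.1 and did not pass, and ran from -2.15 to -1.41 with each library left out; miR-499-5p ran from -1.30 to -0.996. In the replicate block fit, with donor as the block, miR-133a-3p passed on microcarriers against plates at -1.17, and no other call of a member changed. The same block gave 64 calls for perfusion against plates (52 without it) and 23 for microcarriers against plates (6 without it). For perfusion against microcarriers it gave 59 (39 without it). A fit of only 2 groups gave 3 for microcarriers against plates. With each library left out, the calls numbered 29 to 55 for perfusion against plates (52 with all; 29 and 30 without perfusion replicate 1 or 3). They numbered 3 to 12 for microcarriers against plates (3 without plate replicate 3 or 4, 12 without plate replicate 1) and 22 to 49 for perfusion against microcarriers (24, 25 and 22 without perfusion replicate 1, 3 or 4). Scaled to library totals, perfusion against microcarriers gave 17 higher and 20 lower, where the deposited scaling gave 14 and 25. limma-voom on recovered reads, chosen after seeing the data, kept the side of the threshold of each member, with adjusted p of 0.0374 for miR-1 and 0.0290 for miR-499-5p in perfusion against plates. Depth limits miR-133a-3p most, with 5 and 6 reads in its smallest libraries. The count test foreseen on recovered reads was not run.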
